A study of Mus musculus with 4 samples.

Results

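Prostaglandins and leukotrienes are lipid mediators of inflammation, and 9 genes of their synthesis were followed across the cell classes of the inflamed mouse colon. The 9 genes were chosen by name: Ptgs1, Ptgs2, Ptges, Hpgds and Tbxas1 on the prostanoid side, and Alox5, Alox5ap, Lta4h and Ltc4s on the leukotriene side. They are 9 of the 32285 genes in the count tables, and each symbol matched 1 gene. The data are droplet single-cell RNA-seq (10x Genomics) of CD45-selected leukocytes from the colonic lamina propria of C57BL/6 mice with dextran sulfate sodium (DSS) colitis, in 4 samples. By the study's methods the mice drank water with 2% DSS during 7 days, colons were taken on day 8, and 3 mice of 1 group were mixed into each sample, so a sample is a pool and the spread between mice cannot be seen. The labels give the mice as 10 weeks old and the study's text as 8 weeks. The series contains wild-type mice and mice with a whole-body deletion of Ahr, the aryl hydrocarbon receptor, but the labels do not say which sample is which. The samples are therefore called samples 1 to 4, every value is given per sample or as the range over the 4, and no sample is compared with another as a member of a group. All 4 received DSS and none is an undamaged colon.

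Both pathways begin with arachidonic acid, which phospholipase A2 frees from membranes. In the prostanoid branch the cyclooxygenases COX-1 (Ptgs1, often constitutive) and COX-2 (Ptgs2, induced by inflammatory stimuli) make prostaglandin H2, which the terminal synthases turn into prostaglandin E2 (microsomal PGE synthase, Ptges), prostaglandin D2 (haematopoietic PGD synthase, Hpgds) or thromboxane A2 (Tbxas1). In the leukotriene branch 5-lipoxygenase (Alox5) works with its activating protein FLAP (Alox5ap) to make leukotriene A4, which leukotriene A4 hydrolase (Lta4h) turns into the neutrophil attractant leukotriene B4, and leukotriene C4 synthase (Ltc4s) into the cysteinyl leukotrienes. In the gut, prostaglandin E2 is known for its part in mucosal repair, and mast cells are a classic source of prostaglandin D2 and leukotriene C4.

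The cyclooxygenase genes encode enzymes of the same reaction, and their promoters are shown because their transcripts parted in monocytes, as described below. Each sequence runs from 250 bases before the RefSeq start site to 50 bases after it (build GRCm38.p6, 300 bases). Alox5 is added for its contrast between neutrophils and monocytes. Capitals mark the letters of any of 6 motifs that were searched on both strands. The general promoter elements were the GC box, known to bind Sp1 (GGGCGG), and the TATA box bound by the basal machinery (TATAAA). The factor motifs were the core of a cyclic AMP response element (TGACGT), the E-box bound by basic helix-loop-helix factors (CACGTG), the palindrome of the C/EBP family of myeloid factors (TTGCGCAA) and the motif of the GATA factors of mast cells and lymphocytes (AGATAA).
Ptgs1 (chr2:36230176-36230475, plus strand): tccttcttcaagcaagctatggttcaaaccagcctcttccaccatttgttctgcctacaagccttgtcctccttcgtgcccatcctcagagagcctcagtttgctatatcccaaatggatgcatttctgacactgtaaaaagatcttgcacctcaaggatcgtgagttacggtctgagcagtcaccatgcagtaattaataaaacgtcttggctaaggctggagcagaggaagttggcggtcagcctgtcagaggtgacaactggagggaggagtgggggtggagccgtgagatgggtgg
Ptgs2 (chr1:150099781-150100080, plus strand): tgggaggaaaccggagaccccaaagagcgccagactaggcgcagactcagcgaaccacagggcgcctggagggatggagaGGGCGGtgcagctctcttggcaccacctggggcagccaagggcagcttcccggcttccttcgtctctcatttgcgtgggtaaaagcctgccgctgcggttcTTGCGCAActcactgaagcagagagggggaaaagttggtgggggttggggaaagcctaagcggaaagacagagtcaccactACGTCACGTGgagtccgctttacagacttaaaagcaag
Alox5 (chr6:116461129-116461428, minus strand): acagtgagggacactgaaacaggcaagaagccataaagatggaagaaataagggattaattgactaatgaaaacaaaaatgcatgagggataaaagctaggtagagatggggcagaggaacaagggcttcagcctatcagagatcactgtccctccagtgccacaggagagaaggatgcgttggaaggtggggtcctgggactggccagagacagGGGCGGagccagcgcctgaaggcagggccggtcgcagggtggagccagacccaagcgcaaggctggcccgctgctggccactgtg

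The Ptgs2 window held a GC box at position -170 from the start site and a TTGCGCAA palindrome at -69. It also held ACGTCA, the reverse complement of TGACGT, at position 12, which overlaps a CACGTG at 16, so that the last run of capitals in that line is the overlapping pair. None of the 6 motifs was found in the Ptgs1 window, and the Alox5 window held 1 GC box, at -35. Of the other promoters searched, Ptges held 2 GC boxes (-53 and -42) and Tbxas1 an overlapping pair of TATA letters near its start site, while Hpgds, Lta4h and Ltc4s held none. Among all 27025 promoters of the same length, 35.9% held GGGCGG, 14.2% TATAAA, 7.64% TGACGT, 7.24% CACGTG and 11.4% AGATAA, whereas TTGCGCAA was in 50 (0.185%). A match is a description of letters and not of a bound site. Promoters of 8 of the 9 members were in the table, and Alox5ap was not.

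The 4 samples held 45229 cells and 72509408 to 135516016 UMIs each. After filtering, 39550 cells were kept, 26887 of them passed the marker gate of 1 cell class, 6656 passed gates of more than 1 lineage and 6007 passed none. Levels below are CPM, the UMIs of a gene per 1000000 UMIs summed over the cells of a class in 1 sample, and intervals are exact 95% intervals that cover counting error only. Levels are compared between classes for the same gene, not between genes. A class was ranked where it had at least 50 cells in every sample, which left 10: neutrophil, monocyte, transitional (cells with both monocyte and macrophage markers), macrophage, dendritic cell (DC), B cell, T cell, NK cell or ILC1, ILC2 (group 2 innate lymphoid cell) and fibroblast. Ptprc, which encodes CD45, lay between 658 and 4509 CPM in the 9 ranked leukocyte classes, but at 19.9 to 83.04 CPM in fibroblasts, which are thus cells that came through the CD45 selection without CD45 RNA to match. Mast cells were few (17, 73, 6 and 14 cells in samples 1 to 4) and are given as values without a rank. Any 2 samples shared 23 to 49 cell barcodes, at most 0.423% of the smaller one. With 4 samples the smallest 2-sided p of an exact sign-flip test is 0.13, so no p is given, and differences are read from the intervals in each sample.

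**Figure D1:**
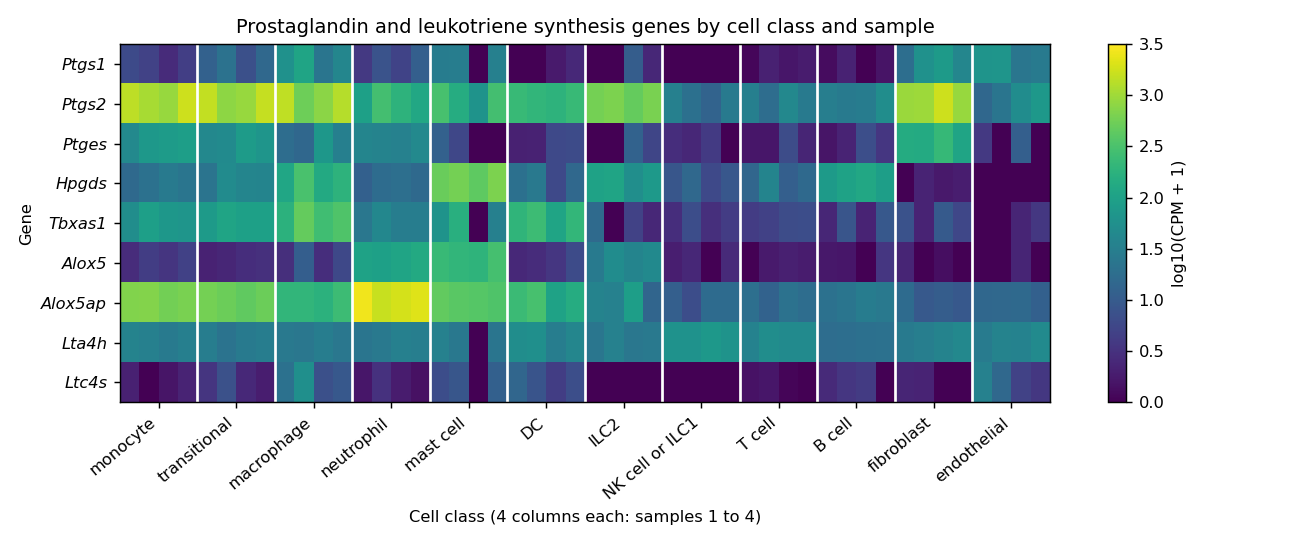
Level of the 9 members (rows) as log10(CPM + 1) in 12 cell classes, with 4 columns a class for samples 1 to 4. Mast and endothelial cells are shown beside the 10 ranked classes. Alox5 is high in neutrophils and mast cells, and Alox5ap is highest in neutrophils, with monocytes next among the ranked classes. Ptgs2 is high in monocytes, macrophages and fibroblasts, and Hpgds in mast cells and macrophages.

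Most members had one class that led in every sample. Ptges was highest in fibroblasts, Hpgds and Ltc4s in macrophages, Alox5 and Alox5ap in neutrophils and Lta4h in NK cells or ILC1, in 4 of 4 samples, which makes 6 of 9 members. These leads go by value. For Ptges, Hpgds, Lta4h and Ltc4s the interval of the ratio to the next class included 1 in at least 1 sample. The background was the 8194 genes that reached 20 CPM in some class in every sample, without the marker genes of the gates. Of these, 47.4% had the same highest class in 4 of 4 samples. Among the 8 members that reached 20 CPM (all but Ltc4s) the count was 5. With every cell thinned to 1000 UMIs it was 3 of the 9 members, Tbxas1, Alox5 and Alox5ap. At least 2-fold above the next class in every sample were 14.2% of all genes and 1 of those 8 members, Alox5ap. Without sample 2, where only the remaining samples had to agree, the count was 2, with Alox5. With classes from clusters it was 3, with Alox5 and Tbxas1. The share over all genes is given for the main setting only, so the counts under thinning, without sample 2 and from clusters have no background beside them. In the main setting both shares of members were near the background. The median ratio of the highest class to the next was 1.76 over the 9 members and 1.27 over all genes tested.

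The genes for COX-1 and COX-2 shared macrophages and fibroblasts and parted in monocytes, where Ptgs1 was low and Ptgs2 was among its highest levels. Ptgs1 (ENSMUSG00000047250, chr2:36230426-36252272) was at 57.6, 108, 22.2 and 39.4 CPM in macrophages of samples 1 to 4 and at 5.02, 3.91, 1.70 and 3.48 CPM in monocytes, a ratio of 11.5, 27.8, 13.02 and 11.3 with the interval above 1 in every sample. Fibroblasts held 17.3, 57.4, 79.7 and 39.6 CPM. Macrophages were above fibroblasts in samples 1 and 2, and fibroblasts were above macrophages in sample 3, with a ratio of 3.59 (interval 2.95 to 4.37). In sample 4 the interval of the ratio included 1. Macrophages that carried resident markers such as Mrc1 and Folr2 had 169, 106, 51.9 and 43.995 CPM of Ptgs1, from 18 to 187 cells, and endothelial cells 63.4, 65.03, 22.4 and 27.1 CPM from 15 to 72 cells. Mural cells (14 to 36 a sample) had 0 Ptgs1 UMIs in samples 1 and 2. They had 62.4 and 61.0 CPM in samples 3 and 4, from 18 and 16 UMIs. In sample 4 they were above fibroblasts and macrophages by value, with overlapping intervals.

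Ptgs2 (ENSMUSG00000032487, chr1:150100031-150108227) was broad among myeloid and stromal cells. In monocytes it was at 1404, 1109, 902 and 1699.6 CPM, in transitional cells at 1514, 811, 902 and 1543 CPM and in macrophages at 1483, 535, 778 and 1275 CPM. Fibroblasts had 952, 957, 1690.5 and 909.7 CPM. The highest class was the transitional one in sample 1, monocytes in samples 2 and 4 and fibroblasts in sample 3. The ratio of fibroblast to monocyte ran from 0.535 to 1.87 and that of monocyte to macrophage from 0.947 to 2.07. No order of fibroblasts, monocytes and macrophages thus held in every sample. By value, transitional cells were above macrophages in each sample, but in sample 1 the interval of their ratio included 1 (0.996 to 1.05). Macrophages with resident markers were lower than monocytes, at 838, 259, 613 and 798 CPM. That was 0.234 to 0.680 of the monocyte level, with the interval below 1 in 4 of 4 samples. Ptgs1 went the other way, at 43.995 to 169 CPM in these resident macrophages against 1.70 to 5.02 CPM in monocytes. Its interval in the resident macrophages lay above that of the whole macrophage class in samples 1 and 3. The resident part left out cells that also passed the gate for Arg1 and Mmp12 or that for Cxcl9 and Cxcl10. Cells that passed either of those gates alone held 1033 to 1988 and 1059 to 1980 CPM of Ptgs2. The monocyte and macrophage classes kept such cells, and the part of this rule in the Ptgs2 difference was not tested. Among dendritic cells, cDC2 (conventional type 2) exceeded cDC1 (type 1) in Ptgs2 by 2.91 to 9.69 times, and B cells were at 27.1 to 51.8 CPM.

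Among the ranked lymphoid classes, ILC2 were an exception for Ptgs2. They held 578, 654, 467 and 614 CPM against 31.3, 16.9, 41.97 and 26.1 CPM in T cells, a ratio of 18.5, 38.8, 11.1 and 23.5 with the interval above 1 in 4 of 4 samples. The ILC2 gate gave 56 to 128 cells a sample. The Ptgs2 UMIs were uneven, and the 5 to 12 ILC2 with the most in each sample held 49.6% to 85.3% of those of the class. The same count of cells in proportion held 44.03% to 49.5% in monocytes and 81.3% to 100% in T cells. A Ptgs2 UMI was found in 27, 18, 27 and 41 ILC2 of samples 1 to 4. It was found in 543, 219, 781 and 414 of the 647, 293, 1041 and 506 monocytes. That share depends on how many cells have a UMI and cannot measure unevenness where few do, so it cannot compare these classes. In sample 2, 112 T cells had a Ptgs2 UMI, fewer than the 212 cells counted, so 100% was fixed in advance. When each cell was thinned to 1000 UMIs, 16.8% to 27.7% of ILC2 had a Ptgs2 UMI, against 1.13% to 3.64% of T cells and 1.74% to 3.11% of B cells. Without thinning the shares were 28.4% to 41.5%, 5.26% to 15.9% and 7.07% to 12.5%, at median depths of 4548 to 5896, 5107 to 7371 and 4116 to 5340 UMIs a cell. The summed monocyte markers were 385 to 483 CPM in ILC2 and 592 to 647 CPM in T cells. The neutrophil markers were 905, 248, 3935 and 629 CPM in ILC2 and 544, 286, 749.6 and 898 CPM in T cells. The part of RNA from these cells in the ILC2 level was not tested. Leaving out ILC2 with any mast cell or basophil marker other than Kit gave 574, 773, 463 and 614 CPM, and keeping only ILC2 with an Il7r UMI gave 531, 403, 536 and 676 CPM. With ILC2 taken from clusters the level was lower, at 369, 287, 390 and 417 CPM. Of the cells in that cluster that passed a gate, 70.5% were ILC2, and the part of the others was not tested. ILC3, too few to rank, had 303 CPM in sample 2 from 31 UMIs, and 2, 2 and 1 UMIs in samples 1, 3 and 4.

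Downstream of the cyclooxygenases, Ptges (ENSMUSG00000050737, chr2:30889471-30929863), the inducible enzyme of prostaglandin E2 synthesis, was highest in fibroblasts, at 143, 138, 219.6 and 109.7 CPM in samples 1 to 4. Monocytes had 43.03, 73.1, 82.8 and 90.3 CPM and macrophages 16.9, 13.8, 69.2 and 31.5 CPM. Fibroblasts exceeded monocytes by 3.33, 1.89, 2.65 and 1.22 times, with the interval above 1 in 3 of 4 samples, and monocytes exceeded macrophages in all 4 (1.20 to 5.31 times). With classes from clusters, fibroblasts led in samples 1 to 3, but in sample 4 monocytes had 99.6 and fibroblasts 87.2 CPM. Of the cells in the monocyte cluster that passed a gate, 58% were monocytes. With cells thinned to 1000 UMIs no class led in every sample. Neutrophils lay at 38.5, 36.1, 33.6 and 43.98 CPM, the narrowest range of these classes, and macrophages with resident markers at 0 to 27.6 CPM. The monocyte-macrophage classes and fibroblasts thus held both Ptgs2 and Ptges. Neutrophils held both too, with Ptgs2 at 96.6 to 287 CPM. Their Ptges level was above that of macrophages in samples 1, 2 and 4 and below it in sample 3.

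Whether the same cells held both was asked in the monocyte-macrophage lineage. At 1000 UMIs a cell, the Ptges level in cells with a Ptgs2 UMI was 1.21, 1.20, 1.34 and 1.07 times that in cells without one, in samples 1 to 4, and the interval was above 1 in sample 3 only (1.02 to 1.74). Without thinning the ratios were 2.14, 2.25, 1.33 and 1.28. The lineage pools classes that differ in Ptges, and within a class the thinned ratio of sample 3 was 1.04 (interval 0.680 to 1.57) in monocytes and 1.49 (interval 0.887 to 2.48) in macrophages. In neither class was the interval above 1 in any sample. In fibroblasts the thinned ratios were 1.52, 0.739, 2.06 and 0.399, from 2 to 47 Ptges UMIs in the Ptgs2-positive cells, with the interval above 1 in sample 3 only.

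Hpgds (ENSMUSG00000029919, chr6:65117293-65144908), which makes prostaglandin D2 in blood-derived cells, was at 499.5, 583, 433 and 636 CPM in mast cells, from 89, 380, 7 and 58 UMIs. Macrophages, the highest ranked class, had 117, 311, 133 and 182 CPM. Their ratio to the next ranked class had an interval that included 1 in samples 1 and 3. It was 1.15 to ILC2 in sample 1 (interval 0.834 to 1.62) and 1.09 to B cells in sample 3 (interval 0.935 to 1.27). Mast cells were 4.26, 1.88, 3.25 and 3.49 times the macrophage level, with the interval above 1 in every sample, though sample 3 rests on 6 cells. With mast cells taken from clusters (48, 113, 31 and 29 cells) the ratios were smaller, at 1.46, 1.26, 1.02 and 1.74, and in sample 3 the intervals overlapped. Of the cells in that cluster that passed a gate, 61.5% were mast cells. The part of its other cells in the smaller ratios was not tested. Resident-marker macrophages held 256, 388, 391 and 236 CPM, 1.25 to 2.93 times the whole class, whereas monocytes stayed at 14.7 to 26.4 CPM. Fibroblasts were near 0 (0 to 1.22 CPM), and endothelial and mural cells had no Hpgds UMI in any sample.

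B cells also held Hpgds, at 80.6, 102, 123 and 91.2 CPM against 13.3, 36.6, 10.5 and 14.9 CPM in T cells, a ratio of 6.08, 2.77, 11.7 and 6.13 with the interval above 1 in 4 of 4 samples. At 1000 UMIs a cell, 6.34% to 7.78% of B cells had an Hpgds UMI, against 1.26% to 3.48% of T cells, 0.827% to 1.58% of neutrophils and 0% to 1.28% of fibroblasts. Unthinned, these shares were 23.03% to 28.6%, 6.99% to 16.02%, 4.70% to 5.25% and 0% to 1.28%, with median depths of 3387 to 6155 UMIs in neutrophils and 6761 to 11528 in fibroblasts. The B cell share at the common depth was above those of T cells, neutrophils and fibroblasts in each sample. The summed macrophage markers, Apoe among them, were at 261 to 457 CPM in B cells, 72.2 to 138 CPM in T cells, 487 to 770.4 CPM in fibroblasts and 10360.4 to 17137 CPM in macrophages. The part of macrophage RNA in the B cell level was not tested. ILC2 had 102, 110.0, 53.02 and 76.8 CPM of Hpgds. Without the ILC2 that carried mast cell or basophil markers other than Kit, that level was 47.4, 111, 54.6 and 76.8 CPM, so sample 1 lost more than the others. ILC2 taken from clusters had 50.8, 70.6, 52.5 and 102 CPM of Hpgds.

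Tbxas1 (ENSMUSG00000029925, chr6:38875404-39084585), the thromboxane synthase known from platelets and macrophages, was at 174, 462, 269 and 340.5 CPM in macrophages and at 193, 249, 108 and 205 CPM in dendritic cells. The dendritic cell value hid a wide spread between its kinds. The cDC1 had 255, 518, 568 and 859 CPM, the cDC2 260.4, 148, 160.2 and 172 CPM, and migratory dendritic cells (Ccr7 and Fscn1 positive) 2.71 to 10.4 CPM. The cDC1 were above macrophages by 1.12 to 2.52 times, with the interval above 1 in 3 of 4 samples, from 17 to 58 cells. Resident-marker macrophages held 547, 539, 511 and 369 CPM and monocytes 50.9 to 93.8 CPM.

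Within the monocyte-macrophage lineage some members rose and 1 fell from monocyte to macrophage. Ptgs1, Hpgds and Tbxas1 were at least 2-fold higher in macrophages than in monocytes in 4 of 4 samples, which is 3 of 8 members tested against 4.37% of all genes. Ltc4s, below the 20 CPM floor, lay the same way. Alox5ap was the 1 member at least 2-fold higher in monocytes, against 1.83% of all genes. With transitional cells set between the 2 classes, the same 3 members rose at each step in every sample (background 11.3%), and Alox5ap fell at each step (background 6.59%). Ptgs2 and Ptges had no such order in all 4 samples. The Hpgds ratio of macrophage to monocyte was 5.05 to 16.4 and that of Tbxas1 3.41 to 5.24. None of the marker genes that define these classes is a member.

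**Figure D2:**
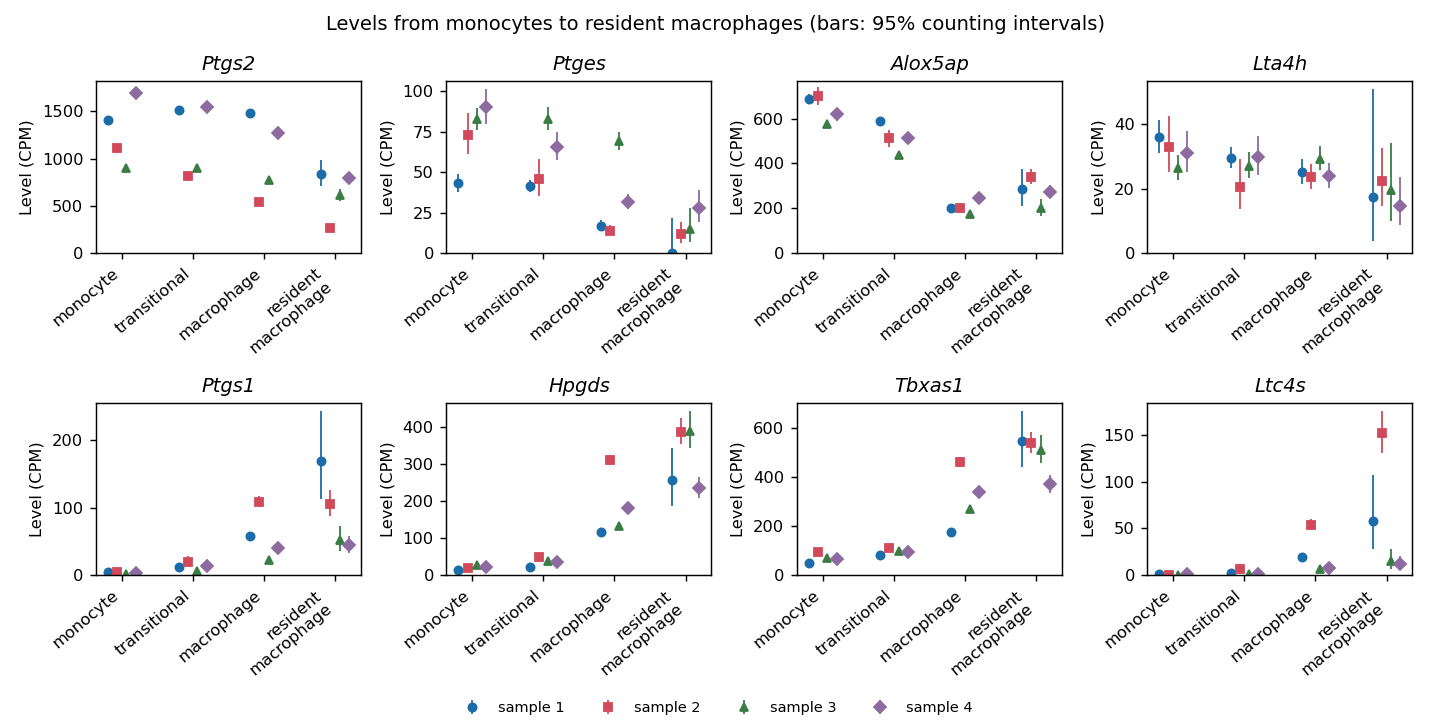
Level in CPM of 8 members in monocytes, transitional cells, macrophages and the resident-marker part of the macrophages, 1 symbol per sample, with exact 95% intervals of counting error as bars. From monocyte to macrophage Ptgs1, Hpgds and Tbxas1 rise at each step in the 4 samples and Alox5ap falls at each step.

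The first leukotriene step, 5-lipoxygenase and its activating protein, was highest in neutrophils among the ranked classes. Alox5 (ENSMUSG00000025701, chr6:116410077-116461178), the 5-lipoxygenase, was at 103, 96.7, 109 and 132 CPM in neutrophils of samples 1 to 4. Mast cells had 230.1, 201, 186 and 296 CPM from 41, 131, 3 and 27 UMIs, which was 1.70 to 2.24 times the neutrophil level with the interval above 1 in 3 of 4 samples, all but sample 3. With mast cells from clusters the ratios were 1.69, 1.78, 1.10 and 2.03, where 61.5% of the cluster's cells that passed a gate were mast cells. Basophils, at 1 to 3 cells a sample, had 366 and 906 CPM in samples 1 and 4, from 6 and 18 UMIs. They had 0 Alox5 UMIs in samples 2 and 3. The summed neutrophil markers in mast cells were 249 to 5677 CPM, against 136084 to 204781 CPM in neutrophils, and the part of such RNA in the mast cell level was not tested. Monocytes were at 1.79 to 3.80 CPM and macrophages at 1.87 to 9.95 CPM. Macrophages with resident markers had 17.5, 25.6, 17.8 and 12.1 CPM, from 3, 31, 11 and 14 UMIs, above the whole class by value in each sample. Neutrophils exceeded monocytes by 57.4, 28.9, 45.1 and 34.8 times. At 1000 UMIs a cell, 8.43% to 10.6% of neutrophils had an Alox5 UMI against 0.192% to 0.685% of monocytes and 0% to 0.565% of B cells, and unthinned the shares were 26.2% to 42.4%, 1.02% to 2.17% and 0% to 1.12% (median depth of monocytes 5752.5 to 8405 UMIs). ILC2 came next among the ranked classes with 25.6, 48.9, 37.3 and 44.9 CPM, from 10, 16, 19 and 31 UMIs, while T cells had 0, 10, 8 and 7 UMIs in all. Without the ILC2 that carried mast cell or basophil markers other than Kit, their Alox5 level was 22.3, 33.8, 34.4 and 44.9 CPM. In ILC2 with an Il7r UMI it was 19.2, 41.8, 21.4 and 49.1 CPM, from 7 to 30 UMIs, so that sample 3 moved most.

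Alox5ap (ENSMUSG00000060063, chr5:149264767-149288153), whose protein presents arachidonic acid to 5-lipoxygenase, was also highest in neutrophils, at 2652, 1629, 1884 and 2134 CPM, but it was also measured in cells with little Alox5. Monocytes had 689, 700.0, 576 and 619 CPM, transitional cells 589, 512, 439 and 512 CPM and macrophages 201, 203, 175 and 247 CPM. The neutrophil to monocyte ratio was 3.85, 2.33, 3.27 and 3.45 for Alox5ap, below the ratio for Alox5 in each sample. Mast cells held 455, 397, 371 and 339.7 CPM. Among dendritic cells, cDC1 exceeded the migratory kind by 9.25 to 24.8 times.

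**Figure D3:**
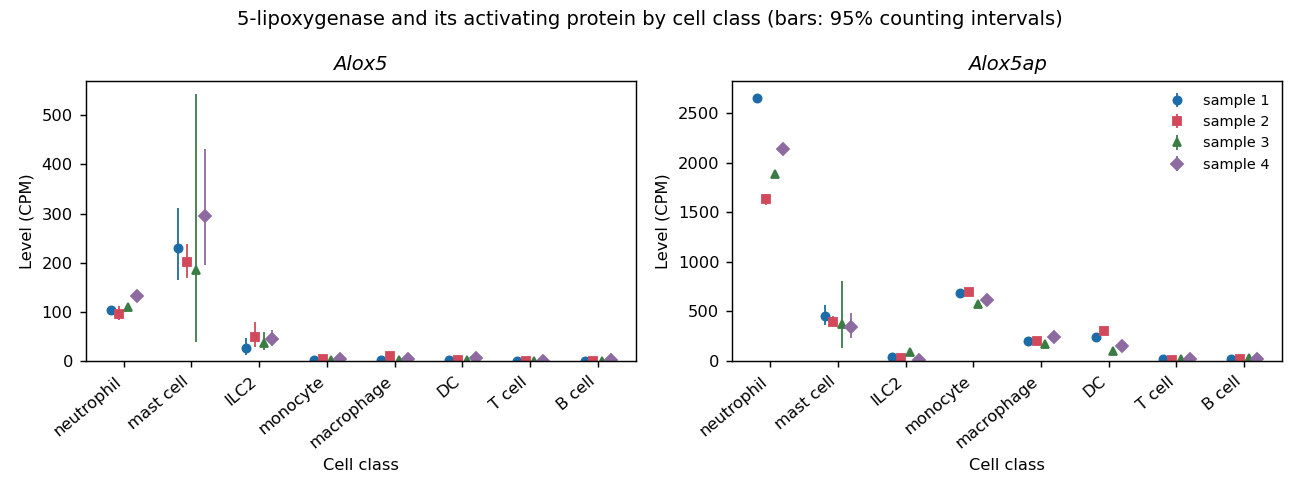
Level in CPM of Alox5 and Alox5ap by cell class, 1 point per sample with exact 95% intervals of counting error. Both are highest in neutrophils among the ranked classes, and Alox5ap alone stays high in monocytes.

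Of the 4718 neutrophils, 2300 were called immature (at least 2 of the granule and lineage genes Ngp, Camp, Ltf and Ly6g) and 885 mature (none of them detected). The rest, with 1 of them, were in neither part. Ly6g is also a marker of the neutrophil gate. Median depth was 3768, 2688, 2975.5 and 3140 UMIs in the mature part and 7104, 4232, 4779 and 6067 UMIs in the immature part. The part of depth in this split, and in the contrasts below, was not tested. Ptgs2 was at 324, 464, 331 and 399 CPM in mature and 66.3, 215, 146 and 80.7 CPM in immature neutrophils, a ratio of 4.89, 2.16, 2.27 and 4.95 with every interval above 1. It was the 1 of 6 members tested that was at least 2-fold higher in mature neutrophils in 4 of 4 samples, a rule that 0.707% of 3821 genes met. The summed monocyte markers were 1030.3 to 1605 CPM in mature and 1568 to 2361 CPM in immature neutrophils, and the macrophage markers 208 to 309.5 and 145 to 217 CPM. The part of RNA from these cells in the Ptgs2 difference was not tested. Alox5 and Alox5ap lay the other way, lower in mature neutrophils in 4 of 4 samples, as did 13.5% of all genes. The immature to mature ratio of Alox5ap was 1.78, 1.53, 1.36 and 1.71, with the interval above 1 in each sample. For Alox5 it was 1.14, 1.12, 1.66 and 2.45, with the interval above 1 in samples 3 and 4. For Ptges the ratio was 0.750 to 1.55, and its interval included 1 in each sample.

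**Figure D4:**
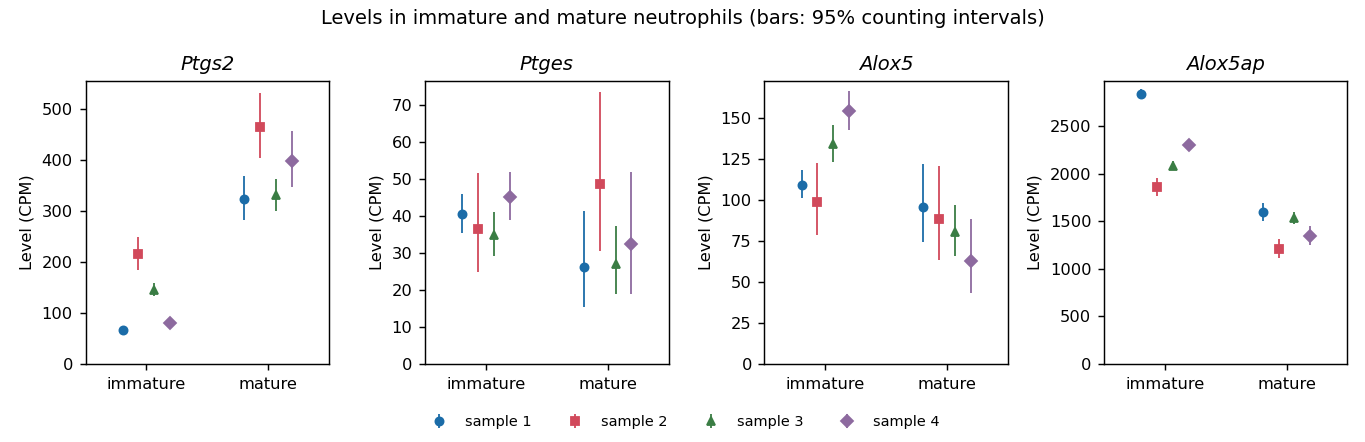
Level in CPM of 4 members in immature and mature neutrophils, 1 symbol per sample with exact 95% intervals of counting error. Ptgs2 lies at 66.3 to 215 CPM in the immature cells and 324 to 464 CPM in the mature cells, without overlap, and Alox5ap is lower in the mature cells of each sample.

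Of the leukotriene A4 converting enzymes, Lta4h (ENSMUSG00000015889, chr10:93453411-93484875) was measured in every ranked class. It was at 59.3, 59.3, 71.8 and 61.7 CPM in NK cells or ILC1 and at 35.2, 50.3, 45.9 and 46.5 CPM in T cells, with the intervals of their ratio above 1 in 2 of 4 samples. Macrophages held 23.5 to 29.3 CPM, and B cells 17.03 to 19.2 CPM. NK cells or ILC1 exceeded neutrophils by 2.06 to 2.69 times and macrophages by 2.37 to 2.59 times, each with the interval above 1 in 4 of 4 samples. Dendritic cells had 50.8, 54.2, 29.4 and 39.6 CPM, and the interval of the NK cell or ILC1 ratio to them included 1 in samples 1 and 2. The cDC2 taken apart, from 43 to 69 cells, had 69.4, 80.99, 44.1 and 76.1 CPM, above NK cells or ILC1 in samples 1, 2 and 4 with overlapping intervals.

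Ltc4s (ENSMUSG00000020377, chr11:50236461-50238616) was sparse. Macrophages had 18.9, 53.6, 6.15 and 8.15 CPM and those with resident markers 58.2, 152, 14.6 and 12.1 CPM, while monocytes had 1.08, 0, 0.568 and 1.27 CPM. Dendritic cells came next to macrophages with 13.2, 7.06, 3.38 and 5.97 CPM, and the interval of the macrophage to dendritic cell ratio was above 1 in sample 2 only. Among classes too small to rank, endothelial cells were above macrophages by value in sample 1, at 33.1 CPM from 22 cells. The cDC2 were so in sample 4, at 19.7 CPM from 43 cells, and in both cases the intervals overlapped. The level in macrophages with resident markers was above that of the whole class in each sample, with intervals apart in samples 1 and 2. Mast cells had 1, 5, 0 and 1 Ltc4s UMIs, from 17, 73, 6 and 14 cells. The macrophage to mast cell ratio had an interval above 1 in sample 2 only (2.96 to 21.6). In sample 4 mast cells were the higher by value, with a ratio of 0.744 (interval 0.127 to 29.9). In ILC2 and in NK cells or ILC1 no Ltc4s UMI was found. Tuft cells, chemosensory epithelial cells known to make leukotrienes, were found in samples 2 and 3 alone (7 and 4 cells). Their Ltc4s level was 413 CPM (interval 252 to 638, from 20 UMIs) and 539 CPM (interval 217 to 1111, from 7 UMIs). Their Alox5 level was 165 CPM (interval 71.3 to 326, from 8 UMIs) and 77.0 CPM (interval 1.95 to 429, from 1 UMI).

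The level of a class and its number of cells together set where the UMIs of a gene lay. The monocyte-macrophage lineage held a median of 78.4% (70.5% to 91.1%) of the Ptgs2 UMIs of all gated cells, with the range over samples in brackets, 75.1% (45.5% to 87.7%) of Ptgs1, 61.7% (50.5% to 63.1%) of Ptges and 81.3% (74.2% to 82.7%) of Tbxas1. Fibroblasts, although highest in Ptges per UMI, gave 8.53% to 21.9% of its UMIs, and neutrophils 10.1% to 24.9%. For Hpgds the lineage held 56.4% (36.999% to 75.05%) and B cells 9.29% to 48.7%. The samples held 2510, 2477, 287 and 356 B cells. Mast cells, highest in Hpgds per UMI, gave 0.319% to 8.37% of it. Neutrophils held 86.9% (41.6% to 90.9%) of Alox5 and 62.5% (40.4% to 71.1%) of Alox5ap, and the lowest Alox5 value was that of sample 2, where the 73 mast cells gave 29.98%. Lta4h had no class above 43.97% in any sample. These shares follow which cells the CD45 selection and the gates kept, and in them fewer cells of a class and less RNA per cell are multiplied together.

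**Figure D5:**
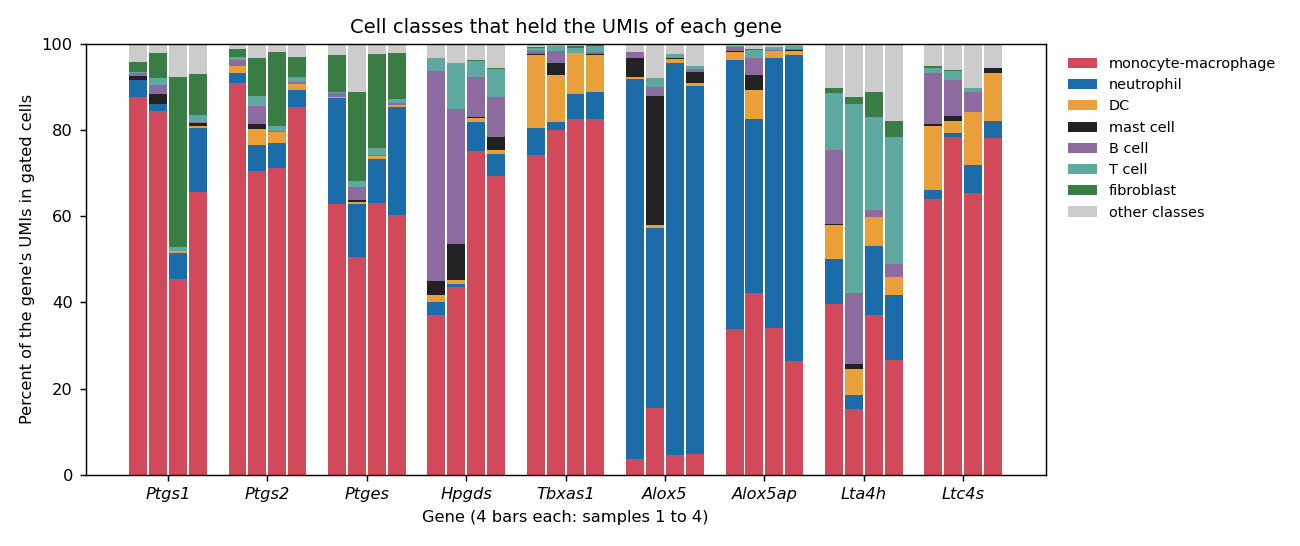
Percent of each member's UMIs, among all gated cells, that lay in each source class, 1 stacked bar per sample. The monocyte-macrophage lineage holds most UMIs of Ptgs2 and of Tbxas1 in each sample. For Ptgs1 the lineage holds most in all but sample 3, where its share is 45.5%. Neutrophils hold most UMIs of Alox5 in samples 1, 3 and 4.

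A wider list of 41 genes of eicosanoid supply, breakdown, transport and reception was read by the same rule, of which 14 reached 20 CPM and 5 of those had the same highest class in 4 of 4 samples (47.4% of all genes did). The 8 breakdown and conversion genes gave 3 of the 5, from 4 that reached 20 CPM, and all 3 were at least 2-fold above the next class, as 14.2% of all genes were. These were Ggt1 in neutrophils (43.03 to 110.2 CPM), and Ggt5 (95.6 to 224 CPM) and Dpep1 (37.2 to 282 CPM) in fibroblasts, whose products are known to trim glutathione-bearing compounds, Ggt1 and Ggt5 converting leukotriene C4 to D4 and Dpep1 leukotriene D4 to E4. Of the 3 transporters, Abcc4, a known exporter of prostaglandins, was highest in monocytes (117 to 321 CPM). Of the 5 leukotriene receptor genes, Cysltr2, a receptor for cysteinyl leukotrienes, was highest in NK cells or ILC1 (184 to 275 CPM). None of the 9 prostanoid receptor genes, 5 phospholipases, 6 other prostanoid enzymes or 5 other lipoxygenase and conjugation genes had both 20 CPM and 1 highest class in every sample.

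The genes whose pattern was most like each member's are given as a description, over 40 points (10 classes in 4 samples, so points share libraries and cell classes) and 8040 genes, by Pearson's r of log2(CPM + 1). For the prostanoid members they were Ccl7 (r = 0.884), Ctsl and Gm10134 for Ptgs1, Tubb6 (r = 0.886), Dock1 and Arhgef10l for Ptgs2 and Csf3 (r = 0.939), Mgst1 and C3 for Ptges. They were Atp8a1 (r = 0.798), Nrros and Cyth1 for Hpgds and Ppt1 (r = 0.918), Cyfip1 and Vav3 for Tbxas1. Csf3 encodes the granulocyte growth factor G-CSF and C3 the complement component. On the leukotriene side they were Hdc (r = 0.845), Aqp9 and Cmtm6 for Alox5, Wfdc17 (r = 0.970) and Mcemp1 for Alox5ap, Klri2 (r = 0.783), Klrd1 and Klra3 for Lta4h and Dnase1l3 (r = 0.842), Pmvk and St18 for Ltc4s. Hdc encodes histidine decarboxylase, the enzyme of histamine synthesis, and the 3 genes named for Lta4h encode NK cell receptors. Between members of 1 branch, r ran from -0.318 (Hpgds and Ptges) to 0.774 (Ptges and Ptgs1), with 0.710 for Ptges and Ptgs2, 0.529 for Alox5 and Alox5ap and -0.281 for Alox5 and Lta4h. Pairs across the branches included 0.717 for Alox5ap and Tbxas1 and 0.713 for Ltc4s and Tbxas1.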

How the data were processed

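The deposited tables hold whole-number UMI counts per gene and cell for 4 samples of colonic CD45-selected cells. Per the labels, the authors used Cell Ranger 5.0.0, STAR and Seurat with mm10, whereas the table headers name Cell Ranger 7.0.1. The tables are not normalised. A filtered matrix was deposited, and no cell annotation was used.

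Cells with at least 200 genes and under 20% mitochondrial UMIs were kept, and Scrublet (scanpy 1.11.5) scores removed 0.8% of cells per 1000 cells in each sample as likely doublets, which left 7539 to 11824 cells a sample with medians of 5641.5 to 7081 UMIs. Classes came from 23 marker gates, each asking for 3 to 6 detected markers, and cells of 2 lineages were set aside as mixed. CPM of summed counts carry exact Poisson intervals and class ratios exact binomial ones (scipy 1.17.1), which cover counting error only. The depth was 72509408 to 135516016 UMIs a sample. For a count of 0 in a class the upper limit of the exact interval lies above 3 UMIs. For shares of cells, each cell was thinned to 1000 UMIs and shallower cells were left out.

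Genes were tested for a highest class where they reached 20 CPM in some class in every sample. The marker genes of the gates and subsets were left out of every share over all genes. Of the 42 genes of the wider list, 1 symbol (Dpep2) has 2 gene IDs and was left out. All 9 members were named, with the wider-list genes past 20 CPM that kept 1 highest class, and for each member the 3 genes of most similar pattern, of which 1 is not reported here. The members and lists were chosen with earlier results of these data known. Alternatives changed the cell filters, doublet removal, gates, clusters, depth and samples. A cluster took the name of the most frequent class among its cells that passed a gate, so it also held cells of other classes. Scripts were tested on simulated data. Gene positions are GRCm38 (mm10) from GENCODE, and promoters are from RefSeq (GRCm38.p6). Samples whose genotype the labels do not give entered no comparison between groups.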

Additional observations from a re-analysis of the deposited data

How the results depend on the processing

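The number of members with the same highest class in 4 of 4 samples was 6. It stayed from 4 to 7 under every alternative but thinning to 1000 UMIs a cell. The 7 came without sample 1, where only the remaining samples had to agree. Thinning gave 3, of which 2 (Alox5 and Alox5ap) were among the 6. No share over all genes is given for the alternatives, so these counts have no background beside them. The number of members at least 2-fold above the next class was 1, but 2 with under 10% mitochondrial UMIs, 2 with the stricter gate (under which ILC2 were too few to rank, so 9 classes were ranked), 3 with classes from clusters and 2 with clusters of at least 25 cells. Leaving out each sample in turn gave 1 to 2, and the 2 came without sample 2. The ratio of a member's highest class to the highest of the others crossed 1 in some settings. For Ptgs2 in monocytes it was 0.898 with the stricter gate and 0.927 to 1.10 when 1 sample was left out. For Ptgs1, macrophages led in samples 1 and 2 and fibroblasts, by value, in samples 3 and 4. Its ratio of fibroblasts to the highest other class was 0.766 in the main setting. That ratio was 0.529 to 1.003 when 1 sample was left out. With gated classes of at least 10 cells and the dendritic cell kinds apart (chosen after seeing the data), Tbxas1 in macrophages was at 0.571 and Lta4h in NK cells or ILC1 at 0.833 of the highest other class. With clusters of at least 25 cells, which bring in mast cells (also chosen after seeing the data), Hpgds in macrophages was at 0.739 and Alox5 in neutrophils at 0.577 of the highest other class. The median share of UMIs in the leading source class, over members, was 41.5% with cells of no class or more than 1 in the denominator, against 71.8% without them, since the denominator then holds more cells. Of the other values, 132 for single members moved by less than the spread between samples and 66 by more. No paired analysis was possible because the labels put no sample in a group. Depth limits Ltc4s, which is under 20 CPM in the ranked classes of some samples, and mast and tuft cells are limited by their number.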
